A study of Mus musculus with 17 samples.

Results

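In the list of Msi2-bound regions in mouse keratinocyte 3′ UTRs, 995 of the 2671 regions (peaks) lay in genes that carried 2, 3 or 4 such peaks. The members were chosen by that number alone, counted from the gene symbol written beside each peak, and they fell in 385 of the 1199 genes with a peak: 223 genes with 2 peaks, 99 with 3 and 63 with 4. The number of peaks per gene is itself a readout of CLIP, so their number, height, width and spacing are described here without a test. The RNA and footprint changes of the same genes come from other libraries, which the choice of members did not use.

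Musashi-2 (Msi2) is an RNA-binding protein that recognises short UAG-containing stretches, mostly in 3′ UTRs, and it is known to alter the translation and stability of the messages it binds. Its best studied settings are stem and progenitor cells, those of blood and skin epithelium among them. The 3′ UTR is the part of a message after the stop codon, where RNA-binding proteins and microRNAs attach, and several binding regions in one 3′ UTR are common for such proteins. HITS-CLIP crosslinks protein to RNA with ultraviolet light, trims the RNA with RNase, pulls down the protein and sequences what it holds.

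All libraries came from a C57BL/6 keratinocyte culture, isolated from newborn skin and immortalised without a transgene during 3 passages on mitomycin-C-treated NIH-3T3 J2 feeder cells. For RNA and ribosome footprints, cultures carried either a scrambled shRNA (the control) or an Msi2 shRNA from a lentivirus, after selection in puromycin at 2 ug/ml for 2 days. There were 3 libraries for each arm in each assay. Footprint cultures were also given cycloheximide, which stalls ribosomes. The 5 CLIP libraries came from UVC-irradiated cultures with no shRNA named, and they differ in RNase: undiluted, 1 in 20 (a low and a high molecular weight cut), 1 in 50 and 1 in 75. Whether the 3 libraries of an arm came from separate cultures is not said in the labels, and the p-values may therefore reflect technical spread alone.

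Gene counts summed to 9221566 to 26785876 per RNA library and to 512256 to 2959625 per footprint library. The knockdown showed in footprints on Msi2 itself (17.1, 16.8 and 18.3 CPM, which are counts scaled to a common library size, in the controls against 4.53, 0 and 5.12), with a log2 fold change of −2.08 ± 0.41 (SE, n = 3 per arm) and an edgeR adjusted p of 0.000285. On Msi2 RNA the log2 fold change was −0.29 ± 0.21 (adjusted p = 0.283). Sums of some marker lists of cell types differed between the arms in RNA. Keratinocyte markers (10 genes) summed to 16873 to 20700 CPM in controls and 14052 to 15773 in knockdowns. Most of each sum came from Krt5 and Krt14, so it does not show that the other keratinocyte markers fell. Krt5, itself a member, was at 8179, 7093 and 5862 against 4678, 4159 and 4881 CPM. Krt14 was at 7725, 7908 and 6178 against 5584, 5066 and 5963. The immune list (8 genes) summed to 16.1 to 18.7 against 8.48 to 13.5. The fibroblast list (10 genes) summed to 4.62 to 7.64 against 9.13 to 10.4, with Col1a2, Col3a1 and Dcn at 0 in all RNA libraries, and the endothelial list (6 genes) to 1.38 to 2.57 against 3.52 to 5.2. Melanocyte markers (8 genes) overlapped between the arms, at 1.71 to 2.31 and 2.08 to 3.77. In RNA 7 of 8 immune, 8 or 9 of 10 fibroblast and 5 of 6 endothelial markers averaged under 1 CPM in an arm. Those sums rest on few genes near the floor. In footprints the keratinocyte sums overlapped between the arms (23661 to 26398 against 22181 to 24779), as did the fibroblast and endothelial sums, while the immune and melanocyte sums did not. The part of these differences in the results was not tested.

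The sequences below are those of microRNAs on which some of the peaks sit. They are shown because they identify peaks that carry the deposited 3′ UTR label and yet cover small structured RNAs. Bases 2 to 8, the seed that pairs with targets, are in capitals, and the sequences are from RefSeq (GRCm38.p6), 5′ to 3′.
miR-21a-5p: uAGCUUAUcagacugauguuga
miR-21a-3p: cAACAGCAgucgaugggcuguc
miR-141-3p: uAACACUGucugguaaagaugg
miR-200c-3p: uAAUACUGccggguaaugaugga
miR-27b-3p: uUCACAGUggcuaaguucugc
No pair of these 5 arms shares a seed. A UAG is present in miR-21a-5p alone of the 5, against 24.2% of the 1738 mature sequences in the table (motif UAG, read on the RNA strand).

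The peaks of miR-21a lay in Vmp1, which encodes a membrane protein of autophagy. A peak 40 bases wide at chr11:86584068-86584107 (mm10, minus strand) held the 3p arm, and 3 bases away a peak 121 bases wide at chr11:86584111-86584231 held the 5p arm. Under the symbol of Ptpn6, a phosphatase gene, but beyond its annotated end, a peak of 27 bases at chr6:124717913-124717939 covered miR-141-3p and a peak of 29 bases at chr6:124718321-124718349 covered miR-200c-3p, both microRNAs of epithelial cells. A gene known by a predicted symbol had a peak of 27 bases on the Mir23b hairpin and another of 23 bases on miR-27b-3p. The widths of 23 to 29 bases under Ptpn6 and this gene stand beside a median of 168 over all 995 peaks. In all, 7 of the 995 member peaks (0.704%) touched a microRNA hairpin on the same strand, and in 6 of them the summit was inside it. The seventh is the wide first peak of Scd2, which spans miR-5114 with its summit elsewhere. Hairpins lay under 2 of 684 peaks of single-peak genes and under none of the 992 peaks of genes with 5 or more. Over all 4051 listed peaks, inside and outside 3′ UTRs, 111 (2.74%) touched one. These peaks were singled out after their values were seen.

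The 6 hairpin peaks had a larger share of their reads from the undiluted library than member peaks as a whole. They took 92 of the 839 reads that the undiluted-RNase library had in member peaks, 10.97% (Wilson 95% interval 9.03 to 13.3), against 0.912%, 0.526%, 0.584% and 0.544% in the 4 libraries with diluted RNase. Between 24.3% and 35.1% of each peak's reads came from the undiluted library, while that library gave 2.17% of all reads in member peaks. The intervals cover counting error only. Reads are counted wherever they overlap a region, so a read that spans neighbouring peaks may be counted in both. The Vmp1 peaks, 3 bases apart, gave 20 and 26 of the 92. Here and in the other read shares, the intervals would then be too narrow.

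Another set of 15 member peaks, in 7 genes, lay over other small RNA genes of the RefSeq table, which gives no strand, so that the match is by position. They include the gene with the largest summed height, Hspa8, which encodes the constitutive Hsc70 chaperone. Its 3 peaks sat on Snord14c (chr9:40803576-40803727), Snord14d (chr9:40803989-40804091) and Snord14e (chr9:40804745-40804890), with heights (the total in the deposited list) of 691, 568 and 486. By reads Hspa8 was not first. In the diluted libraries, in order of replicate number, its peaks held 360, 342, 533 and 455 reads against 493, 980, 1013 and 957 for Cxcl5. Snord genes encode small nucleolar RNAs, which guide chemical modification of other RNAs and often lie within the introns of their host gene. The 3 peaks of Rps12, a ribosomal protein gene, covered Snord100, Snora33 and a further snoRNA, with heights of 239, 53 and 236. In Rps3, 1 of 2 peaks covered Snord15b (height 81). Listed under Arhgef39 but beyond its annotated end, a neighbouring pair of peaks, 66 and 40 high, both fell on Rmrp, the RNA of RNase MRP. The remaining 6 peaks were in 3 genes with predicted symbols: 4 on snoRNA genes, and 2 wide peaks on the mitochondrial genome, which span tRNA genes and had heights of 827 and 256. Those 2 peaks were 1323 and 766 bases wide, and the tRNA genes within them 59 to 71 bases each. Most of their bases thus lie outside the tRNA genes.

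These 15 peaks had a median height of 90 against 16 for the other 980, and they made up 7 of the 25 member peaks with a height of 100 or more. Their share of member-peak reads ran from 7.55% in the 1 in 20 high molecular weight library to 14.7% (12.4 to 17.2) in the undiluted one. The 2 wide mitochondrial peaks are among those 7 and held 32 of the 123 reads of the 15 peaks in the undiluted library. In the diluted libraries, in order of replicate number, they held 409 of 947, 179 of 746, 241 of 1138 and 222 of 948. Peaks over small RNA genes made up 1.51% of member peaks, 2.05% of the peaks of single-peak genes and 0.504% of those of genes with 5 or more peaks. The match was made after the heights were seen. Of the 10 genes with a peak on a hairpin or another small RNA, 7 were tested in RNA (2 higher, 2 lower) and 6 in footprints (none called). The share of reads in the plot by RNase dilution sets the 2 kinds of peak beside each other.

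**Figure D1:**
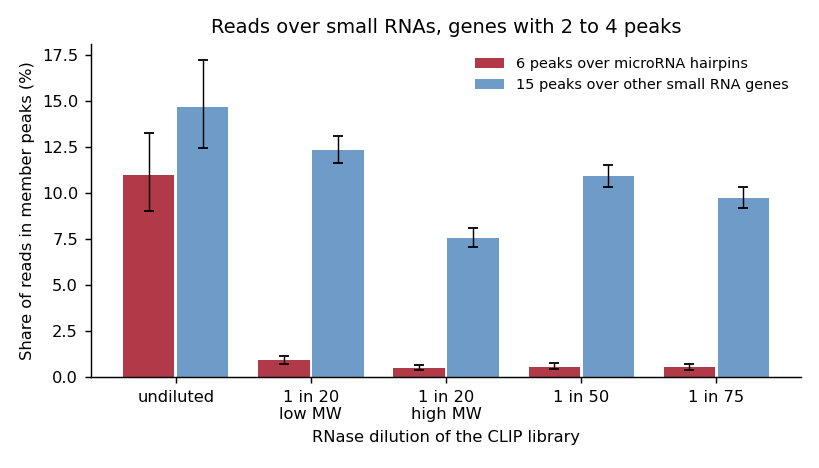
Share of the reads in member peaks (%, y axis) that fell in 6 peaks over microRNA hairpins (red) and in 15 peaks over other small RNA genes (blue), by RNase dilution of the CLIP library (x axis). Error bars are Wilson 95% intervals for counting error. The hairpin peaks hold 10.97% of the reads in the undiluted library and under 1% in the others, and the blue bars lie between 7.55% and 14.7%. The blue bars include the wide mitochondrial peaks, most of whose bases lie outside tRNA genes.

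Height is the total peak height given in the deposited list over the 5 libraries, with a lowest value of 10. In the 180 member peaks that the list names subpeaks it is below the summed reads, and in all others it equals them. Comparisons of height therefore mix unlike measures. Over the 995 member peaks the median height was 16 (quartiles 12 and 26, maximum 827), and 61.0% of the peaks were under 20. Genes just outside the rule had median heights of 15 (1 peak) and 18 (5 peaks), with 15, 18 and 17 for genes with 2, 3 and 4 peaks. Median widths were 165, 169 and 169 bases in those 3 classes, against 149 with 1 peak and 175 with 5. Taller peaks were wider (Spearman 0.517 over 995 peaks, which share libraries and, within a gene, a message). A height that equals the reads over the whole region can grow with width, so this relation may be built into the measure. The summit lay at a median of 51.5% of the width from the 5′ edge.

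Reads of the 3′ UTR list fell into member peaks in a similar share in every library, from 39.7% (39.1 to 40.3) at 1 in 75 to 43.2% (42.5 to 43.9) in the 1 in 20 low molecular weight library, with 42.9% (40.8 to 45.1) of 1954 reads in the undiluted one. The undiluted library had a read in 358 of the 995 peaks, and the other 4 libraries in 973 to 994. Reads in all 5 libraries were present in 32.6% of the peaks.

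Neighbouring peaks of a gene had their centres a median of 378.5 bases apart over 610 pairs (quartiles 208 and 745, range 63.5 to 4847). The median was 492 bases in genes with 2 peaks, 358.75 with 3 and 285.5 with 4, and 410.75 in genes with 5. From the first base of the first peak to the last base of the last, the median was 726 bases with 2 peaks, 1061 with 3 and 1339 with 4. The edges were often much closer than the centres. The gap had a median of 146 bases, 35.7% of the gaps (218) were at most 50 bases, and 18.5% (113) at most 10. In genes with 5 or more peaks 49.0% of the gaps were at most 50 bases.

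Many of the smallest gaps lay between entries that the list sets apart by name. It calls 180 member peaks (18.1%), in 81 genes, subpeaks. Each of these has a height below its summed reads, while in all 815 other peaks the values are equal. In 99 neighbour pairs both peaks were subpeaks, with a median gap of 4 bases, and 86 of them were at most 50 bases apart. The other 511 pairs had a median gap of 238 bases, and 132 were within 50. Subpeaks made up 1.32% of the peaks of single-peak genes and 40.1% in genes with 5 or more. How the subpeaks were cut is not given in the sources used here.

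**Figure D2:**
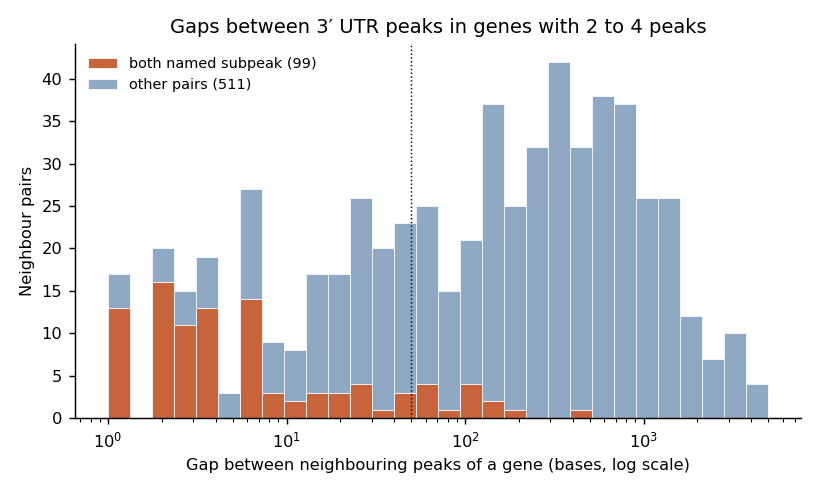
Gaps between the edges of neighbouring peaks of a gene (x axis, bases, log scale) against the number of neighbour pairs (y axis), for 610 pairs in 385 genes. Pairs in which both peaks are named subpeaks (orange, 99) lie mostly at gaps under 10 bases, and the other pairs (blue, 511) spread around a median of 238 bases. The dotted line marks 50 bases.

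The arrangement varied among the 385 genes. In 82 genes every gap was at most 50 bases, in 217 none was, and in 45 every gap was over 1000 bases. Last summits lay a median of 423 bases before the end of the gene (quartiles 127.5 and 1250.5 over 380 genes located in RefSeq), 116 of them within 200 bases of it, and 14 beyond it. The tallest peak held a median of 54.4% of a gene's summed height. In genes with 2 peaks the tallest was the first in 121, the second in 89 and tied in 13. Neighbours differed in height by a median ratio of 1.52, and 24 of 610 pairs by 5 or more, while the heights of neighbours were weakly related (Spearman 0.178 over 610 pairs that share genes). Of the 380 located genes, 58 (15.3%) also held a listed peak outside the 3′ UTR list, against 7.5% of single-peak genes and 37.7% of genes with 5 or more.

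Among the genes with the largest summed height, Cxcl5 and Scd2 had wide peaks. Cxcl5, a neutrophil chemokine, had 4 subpeaks with heights of 43, 61, 393 and 67 from chr5:90760448 to 90761647, with gaps of 8, 7 and 1 bases. The tallest, 651 bases wide, held 23 reads in the undiluted library and 419, 852, 848 and 800 in the others, the largest count in a member peak in each of the 4 diluted libraries. Scd2, a stearoyl-CoA desaturase, had heights of 445, 29, 14 and 727 over 3853 bases (chr19:44303013-44306865), and its outer peaks were 1241 and 2105 bases wide, the last of them the widest of all members. Dsp, the desmosomal plaque protein desmoplakin, had 152, 182 and 25 within 813 bases (chr13:38197767-38198579). Pcdhgc5, a protocadherin gene, had 88 and 326, and its own coding counts were near 0 in every library. Genes of its cluster share their last exons, so the gene behind these peaks is uncertain.

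At the short end of the spacing, Wbp5 had 3 peaks with heights of 12, 12 and 13 in 211 bases (chrX:136246636-136246846), the nearest centres 63.5 bases apart. Rab1, a GTPase of transport from the endoplasmic reticulum, and Tmed9, a receptor of the same route, each had a pair of centres 70 bases apart. At the far end stood Nfat5, the tonicity-responsive transcription factor, with 2 peaks 4847 bases apart (heights 10 and 14), and Mbnl3, a splicing regulator, at 4214.5 (15 and 11). All 5 of these genes had low peaks, with a height of 21 at most.

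Genes with 4 peaks differed in how evenly they were loaded. Il24, a cytokine, had heights of 16, 11, 67 and 10, and Sppl2a, an intramembrane protease, 117, 21, 11 and 33, so that the tallest peak held 64.4% and 64.3% of the sum. By contrast Ccdc47 (14, 12, 14, 15), Sqstm1 (15, 16, 17, 14) and Zfp451 (14, 13, 15, 16) were close to even, at 27.3%, 27.4% and 27.6%. The map of peak positions shows these arrangements for 16 genes.

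**Figure D3:**
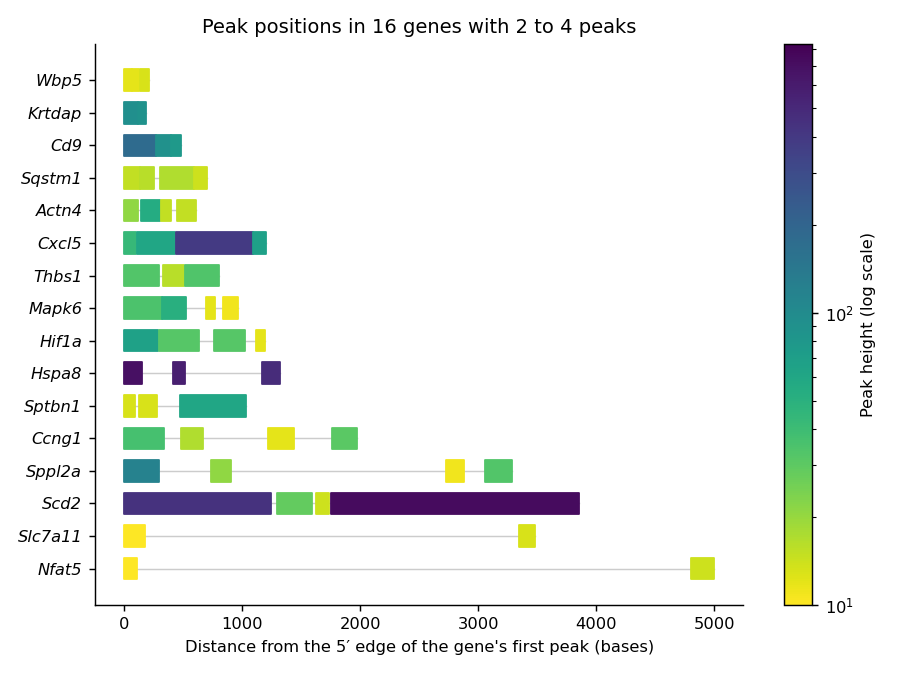
Peaks of 16 genes, drawn from the 5′ edge of each gene's first peak (x axis, bases) and coloured by height (log scale). Neighbouring peaks of Krtdap, Cd9 and Cxcl5 lie 1 to 8 bases apart, the 3 peaks of Hspa8 are narrow and tall, the outer peaks of Scd2 are the widest of those drawn, and the peaks of Nfat5 are 4847 bases apart from centre to centre.

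Coding-sequence counts of RNA and footprints were compared between the arms with edgeR's quasi-likelihood test over all genes (Benjamini-Hochberg adjustment, threshold 0.05). Fold changes are log2 of Msi2 shRNA over scrambled ± the fitted standard error, and levels are TMM-scaled CPM. Of the 385 genes, 378 were found in the count tables, 375 passed the filter on low counts in RNA and 373 in footprints. Genes not tested in an assay are left out of the counts of that assay below. In bulk cultures, fewer cells of a type and less RNA per cell cannot be told apart.

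In RNA, 104 of 375 member genes rose and 65 fell, 45.1% in all, against 43.8% of the 11117 genes tested (22% higher, 21.7% lower), so the share is near the background. The median log2 change was 0.03 for the members and 0.004 for all genes. Arms did not overlap for 187 of 375 members, and 52.9% of all genes. Without the first RNA control library, 41 member genes fell in place of 65.

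In footprints, 59 of 373 member genes rose and 26 fell, 22.8% in all against 16.1% of 8969 genes. Of these, 15.8% of members were higher (all genes 8.76%) and 6.97% lower (all genes 7.38%). The median log2 change was 0.09 against −0.01, 63.5% of the members had a positive change against 48.9% of all, and arms did not overlap for 147 members and for 31.4% of all genes. The count of lower genes was 16 without the first knockdown footprint library and 14 without the third. Members were also more abundant: their median average log2 CPM was 6.40 in RNA and 7.20 in footprints against 4.65 and 5.35 for all genes tested, and the part of abundance in these counts was not tested.

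The classes on either side of the rule stand beside these values. In footprints 90 of 643 single-peak genes rose and 63 fell, and 41 of 130 genes with 5 or more peaks rose and 9 fell. Within the members 31 rose and 11 fell of 213 genes with 2 peaks, 16 and 6 of 97 with 3, and 12 and 9 of 63 with 4. In RNA the counts were 61 and 39 of 215, 25 and 14 of 97, and 18 and 12 of 63, with 60 and 14 of 129 for genes with 5 or more. Differences between these classes were not tested.

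Arrangement was set beside change in the same way. Where every gap was at most 50 bases, footprints rose in 20 and fell in 4 of 81 genes (median 0.17), and RNA rose in 23 and fell in 18. Where every gap was over 50 bases, footprints rose in 31 and fell in 12 of 208 genes (median 0.07), and RNA rose in 64 and fell in 29 of 210. In the genes with gaps of both kinds, footprints rose in 8 and fell in 10 of 84 (median 0.08), and RNA rose in 17 and fell in 18 of 84. Genes that fell in footprints had a median summed height of 74, those that rose 47 and those not called 44.5. Genes that fell in RNA had a median shortest distance of 221 bases, against 341.75 for those that rose and 316.5 for those not called. None of these differences was tested.

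RNA and footprint calls of the members never pointed in opposite directions. Among the members 48 were higher in both and 16 lower in both, 56 were higher and 49 lower in RNA alone, and 11 were higher and 10 lower in footprints alone. RNA alone includes genes not tested in footprints. Of the 373 tested in both, 104 were called in RNA only. Joint counts were not made over all genes, where 43.8% were called in RNA and 16.1% in footprints. They are therefore not shown to be particular to the members. A call in only 1 assay does not show a difference between the assays. Translational efficiency, the ratio of footprints to RNA, was tested directly as an interaction term in 1 model of all 12 libraries. There 1 of 375 member genes was higher and 2 were lower, against 0.203% of 10821 genes (0.129% higher, 0.0739% lower), and 62 of 375 members had an unadjusted p under 0.05, as did 1300 of all 10821 genes.

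**Figure D4:**
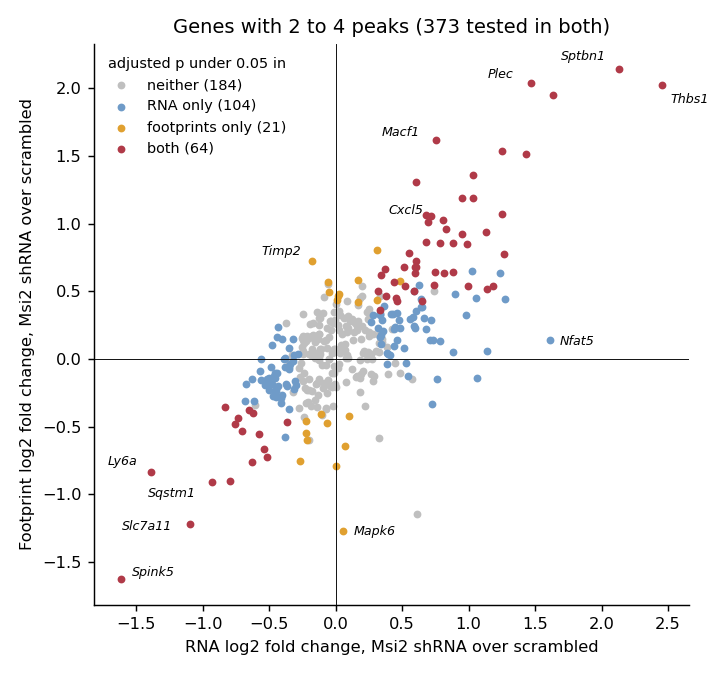
Log2 fold change of RNA (x axis) against that of footprints (y axis), Msi2 shRNA over scrambled, for the 373 member genes tested in both assays. Colour gives the assay in which the edgeR adjusted p was under 0.05 (both 64, RNA only 104, footprints only 21, neither 184). Called genes lie along the diagonal, with Sptbn1, Thbs1 and Plec highest and Spink5 lowest, and Mapk6 and Timp2 lie off it.

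The 3 genes with a call in translational efficiency were Mapk6, Zfp266 and Timp2. Mapk6, the atypical MAP kinase ERK3, had 4 peaks with heights of 35, 51, 12 and 11 (chr9:75386854-75387816). Its RNA was 329, 296 and 347 CPM in controls and 346, 318 and 344 in knockdowns, and its footprints were 210, 163 and 212 against 82.1, 40.1 and 104. The arms overlap in RNA and are apart in footprints, where the gene fell by 1.27 ± 0.19 (adjusted p = 4.8e-05), and the interaction was −1.30 ± 0.23 (adjusted p = 0.0146). Zfp266, a zinc finger gene with 2 peaks 1362 bases apart (heights 11 and 16), rose in RNA from 9.64, 12 and 12.4 to 22.5, 24.1 and 24.3 CPM while its footprints were 49.6, 50.4 and 59.3 against 46.3, 50.1 and 46. Its interaction was −1.19 ± 0.23 (adjusted p = 0.0268). Timp2, an inhibitor of matrix metalloproteases with peak heights of 12 and 22, had RNA at 99.3, 121 and 92.2 against 102, 87.8 and 87.4 CPM. Timp2 footprints rose from 107, 112 and 93.1 to 164, 203 and 165, with an interaction of 0.91 ± 0.19 (adjusted p = 0.0336).

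Leaving out 1 of the 12 libraries ended the Timp2 interaction call in 10 fits (edgeR adjusted p 0.0754 to 0.174), all but those without the footprint control 2 or the RNA control 3. The Zfp266 call ended in 5 fits (0.0547 to 0.120: without footprint control 1, footprint knockdown 1 or 3, RNA control 1 or RNA knockdown 3). The Mapk6 call ended in 3 (0.0547 to 0.0793: without footprint control 1, footprint knockdown 1 or RNA knockdown 3). The fall of Mapk6 footprints kept its call in every fit run.

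Thbs1, Sptbn1, Plec and Specc1 were among the members that rose most in both assays. Thbs1, the secreted matrix protein thrombospondin-1, had peak heights of 33, 16 and 34 within 803 bases (chr2:118126077-118126879). Its RNA was 12.4, 12.5 and 16.4 CPM in controls and 70.5, 88.8 and 64.4 in knockdowns, a rise of 2.45 ± 0.15 (edgeR adjusted p = 1.2e-08). Its footprints rose from 138, 176 and 154 to 621, 588 and 696 CPM (2.02 ± 0.14, adjusted p = 1.31e-13). Every knockdown library was above every control in both assays. Sptbn1, a spectrin that lines the plasma membrane, had peak heights of 13, 13 and 61 (chr11:30099443-30100476). Its RNA rose from 22.2, 19.4 and 30.7 to 93.4, 125 and 95 CPM (2.13 ± 0.16), and its footprints from 32.9, 53.7 and 60.7 to 225, 209 and 187 (2.14 ± 0.17, adjusted p = 1.11e-11). Plec, the plakin that joins keratin filaments to other structures, had heights of just 10 and 23 in its 2 peaks (chr15:76170972-76171886). Its footprints rose from 490, 557 and 712 to 2053, 2888 and 2243 CPM (2.04 ± 0.15) and its RNA by 1.47 ± 0.16 (adjusted p = 4.06e-06). Specc1, a cytoskeletal adaptor, rose by 1.63 ± 0.14 in RNA and by 1.95 ± 0.19 in footprints.

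Of the 10 members in the list of microtubule, keratin and plakin genes, 5 rose and 1 fell in RNA, and 5 rose and 2 fell in footprints (medians 0.28 and 0.30, all genes 0.004 and −0.01). Over the whole list 10 rose and 7 fell of 29 in each assay. Macf1, a plakin that links actin and microtubules, rose by 0.75 ± 0.14 in RNA (211, 184 and 264 to 357, 404 and 346 CPM) and by 1.62 ± 0.14 in footprints (169, 181 and 243 to 532, 672 and 588, adjusted p = 4.94e-11). Its interaction did not pass the threshold (0.88 ± 0.20, adjusted p = 0.0506). The gene that fell in both was Krt5, a basal keratin with 4 peaks in 513 bases, at 8179, 7093 and 5862 CPM of RNA in controls and 4678, 4159 and 4881 in knockdowns (−0.62 ± 0.15, adjusted p = 0.00255). Ahnak, a giant scaffold protein with 3 peaks (heights 76, 26 and 63), rose by 1.25 ± 0.16 in RNA and by 1.53 ± 0.19 in footprints (adjusted p = 2.58e-05). Krt5 was singled out after its values were seen.

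Of 6 matrix and protease members, 3 rose in RNA and 4 in footprints, with none lower. The whole list had 25 higher and 3 lower of 36 in RNA and 20 higher and 1 lower of 34 in footprints, against 22% and 8.76% higher over all genes. Plaur, the urokinase receptor, had 2 peaks 7 bases apart, and its footprints rose from 133, 174 and 113 to 251, 283 and 255 CPM (0.86 ± 0.15, edgeR adjusted p = 3.3e-05). Col4a1, a basement membrane collagen, rose by 0.68 ± 0.13 in footprints and by 0.60 ± 0.12 in RNA (adjusted p = 0.000636). Ccbe1, which encodes a secreted matrix protein, rose in RNA by 1.26 ± 0.17 and in footprints by 0.77 ± 0.16.

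Among 4 focal adhesion members, 3 rose in RNA and 1 in footprints. The whole list had 24 higher and 1 lower of 35 in RNA, and 17 higher and 0 lower of 34 in footprints. Flna, the actin crosslinker filamin A, had 2 peaks (heights 17 and 12) and RNA at 515, 533 and 730 against 1557, 1713 and 1537 CPM (1.43 ± 0.15). Its footprints were 1131, 1192 and 1590 against 3666, 4027 and 3427 (1.51 ± 0.14, edgeR adjusted p = 7.56e-11). Actn4, an actinin with 4 peaks in 603 bases, was higher by 0.33 ± 0.12 in RNA (adjusted p = 0.0317), and so was Cav1, the caveolar coat protein (0.33 ± 0.12, adjusted p = 0.0309). Both calls are fragile. That of Actn4 ended without RNA control 1 or any of the 3 knockdown libraries (adjusted p 0.0556 to 0.161), and that of Cav1 in all fits except the one without control 2 (0.0591 to 0.150). Of 9 members in the list of actin and migration genes, 1 fell in RNA and none was called in footprints, while the whole list had 13 higher and 6 lower of 55 in RNA and 12 higher and 2 lower of 54 in footprints. Marcksl1, with peak heights of 56 and 22, had a footprint change of 0.28 ± 0.14 (adjusted p = 0.185), Ezr, ezrin, with 77 and 17, −0.18 ± 0.13 (adjusted p = 0.375), and Sept7, a septin, −0.22 ± 0.15 (adjusted p = 0.378).

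Junction genes stood apart from one another. Of 5 members, 1 rose in RNA and 1 fell in footprints, and the whole list had 10 higher and 8 lower of 34 in RNA and 6 higher and 10 lower of 32 in footprints. Cldn4, a tight junction claudin with 4 low peaks (heights 12, 16, 12 and 13), was the riser, from 176, 210 and 181 to 246, 265 and 271 CPM (0.46 ± 0.12, edgeR adjusted p = 0.00402). Pkp1, a desmosomal plakophilin, fell in footprints from 1046, 1156 and 1113 to 729, 876 and 798 CPM (−0.47 ± 0.13, adjusted p = 0.00821), with RNA at −0.06 ± 0.12. Its footprint call ended without knockdown library 1 or 3 (adjusted p 0.0882 and 0.0697). Ctnnb1, beta-catenin, with peak heights of 20, 21 and 29, had RNA at 335, 327 and 334 against 335, 329 and 327 CPM. The desmoplakin gene Dsp, among the tallest by CLIP, had a footprint change of −0.04 ± 0.14 (adjusted p = 0.877).

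Changes of signalling members varied from gene to gene. Of 3 YAP and Hippo members, 1 rose and 0 fell in each assay. The whole list had 10 higher and 0 lower of 24 in RNA, against 22% and 21.7% of all genes. In footprints it had 4 higher and 1 lower of 23. Ctgf, a secreted matricellular protein and target of YAP, had 2 peaks 16 bases apart, and its RNA rose from 40.1, 44.4 and 46.1 to 104, 99.3 and 107 CPM (1.25 ± 0.11, edgeR adjusted p = 4.01e-07). Footprints of Ctgf rose by 1.07 ± 0.15. Yap1, the coactivator itself, had 4 peaks and changes of −0.09 ± 0.11 in RNA and −0.18 ± 0.15 in footprints, neither called, and Amotl1, a binding partner, had peaks 3605 bases apart and was not called (0.48 ± 0.22 in RNA, adjusted p = 0.102). Of 5 Notch and Wnt members, 1 rose and 1 fell in each assay, and of the whole list 13 rose and 2 fell of 40 in RNA and 7 rose and 2 fell of 38 in footprints. Jag1, a Notch ligand with peak heights of 22, 38, 11 and 34, rose in RNA from 45.3, 39.5 and 68.2 to 109, 132 and 104 CPM (1.18 ± 0.17) and by 0.54 ± 0.14 in footprints, a call that ended without footprint control 2 (adjusted p = 0.0599). Csnk1a1, casein kinase 1 alpha, fell by 0.70 ± 0.13 in RNA and by 0.53 ± 0.13 in footprints (adjusted p = 0.00299). Adam10, the protease that cleaves Notch, was not called (footprints −0.37 ± 0.15, adjusted p = 0.103).

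Among growth factor and MAP kinase members, Ereg, the EGF receptor ligand epiregulin, rose in RNA from 5.49, 3.62 and 4.54 to 8.42, 11 and 8.37 CPM (1.02 ± 0.22, edgeR adjusted p = 0.00124). Of the 5 members, 1 rose and 0 fell in RNA, and 0 rose and 1 (Mapk6) fell in footprints. The whole list had 16 higher and 4 lower of 53 in RNA and 6 higher and 5 lower of 48 in footprints.

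Transcription factor members that were called in footprints were all lower, 3 of 5. Of the whole list 12 were lower and 7 higher of 54, against 7.38% lower over all genes. Hif1a, the oxygen-regulated factor, had heights of 66, 32, 32 and 12 in 4 peaks (chr12:73945724-73946911), and its footprints fell from 281, 231 and 306 to 169, 158 and 162 CPM (−0.72 ± 0.14, edgeR adjusted p = 0.000253). Its RNA fell by 0.52 ± 0.15, a call that ended without RNA control 1 or knockdown 1 (adjusted p 0.0597 and 0.053). Rreb1, a zinc finger factor, fell in footprints from 48.7, 51.4 and 59.3 to 33.2, 24.1 and 28.7 CPM (−0.79 ± 0.20, adjusted p = 0.00557) with RNA at 0.01 ± 0.14. Klf3 was at 63.2, 67.8 and 109 against 40.3, 62.2 and 39.9 CPM (−0.75 ± 0.21, adjusted p = 0.00975), and its call ended without footprint knockdown 1 or 3 (0.120 and 0.0784). Nfat5, whose peaks were the farthest apart, rose in RNA from 2.77, 1.88 and 3.43 to 5.4, 10.8 and 7.73 CPM (1.61 ± 0.28, adjusted p = 0.00026) while its footprints were 30.7, 34.6 and 43.7 against 38.3, 36.1 and 39.9. The interaction for Nfat5 missed the threshold (−1.47 ± 0.35, adjusted p = 0.0535).

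RNA-binding proteins were a large set, 12 members with 5 higher and 1 lower in RNA and 1 in each direction in footprints. The whole list had 36 higher and 4 lower of 87 in RNA, against 22% and 21.7% of all genes, and 8 higher and 3 lower of 81 in footprints. Tardbp, which encodes TDP-43, rose from 169, 168 and 172 to 227, 231 and 232 CPM in RNA (0.44 ± 0.11, edgeR adjusted p = 0.00296) and from 193, 183 and 131 to 265, 257 and 248 in footprints (0.57 ± 0.14, adjusted p = 0.00381). The helicase gene Ddx5 rose by 0.42 ± 0.12 in RNA (adjusted p = 0.00943), a call that ended without control 1 or knockdown 2 (0.0569 and 0.0558). Ptbp3, a splicing regulator with peak heights of 54, 28 and 25, was lower in footprints by −0.42 ± 0.15 (adjusted p = 0.0424), a call lost without any 1 library but control 3 (0.0628 to 0.213) and with DESeq2 (0.112). Of 3 translation factors, Eif5 (0.65 ± 0.11, adjusted p = 0.000266) and Eif4a2, an isoform of the helicase eIF4A (137, 145 and 185 to 271, 359 and 340 CPM, 1.06 ± 0.14), rose in RNA. Eif4b was at −0.32 ± 0.11 (adjusted p = 0.0288), which did not hold without control 1 or any of the 3 RNA knockdown libraries (0.0677 to 0.112). None of the 3 was called in footprints. Of the whole list of translation factors 6 rose and 11 fell of 31 in RNA.

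Of 10 membrane traffic members, 5 fell and none rose in RNA, and none was called in footprints (median −0.31 in RNA, −0.17 in footprints). Of the whole list 21 fell and 8 rose of 61 in RNA, against 21.7% and 22% of all genes, and 6 fell and 5 rose of 61 in footprints. Rab1 fell from 158, 129 and 122 to 99.5, 97.7 and 101 CPM (−0.46 ± 0.12, edgeR adjusted p = 0.00445). The GTPase genes Rab10, Rab18, Arf6 and Arl8b, which were picked out with their values known, make up the other 4, with changes of −0.63, −0.41, −0.43 and −0.41. Syntaxin gene Stx12, mannose-6-phosphate receptor gene M6pr and translocon gene Sec61a1 had footprint changes of −0.60 ± 0.24, 0.34 ± 0.15 and 0.30 ± 0.13, none called (adjusted p 0.0861, 0.106 and 0.124).

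Growth control and protein turnover held single clear members. Ccng1, cyclin G1, a p53 target, had heights of 37, 17, 12 and 31 in 4 peaks over 1970 bases (chr11:40749028-40750997). Its RNA rose from 92.4, 111 and 115 to 204, 220 and 209 CPM (0.99 ± 0.12, edgeR adjusted p = 7.48e-06) and its footprints by 0.85 ± 0.16. Mdm2, the ubiquitin ligase for p53 and also its target, rose in footprints from 103, 93.4 and 104 to 192, 215 and 180 CPM (0.96 ± 0.14, adjusted p = 4.4e-06) and by 0.83 ± 0.12 in RNA. Ppp1cb, a catalytic subunit of protein phosphatase 1, fell in footprints from 505, 421 and 395 to 291, 281 and 263 CPM (−0.67 ± 0.13, adjusted p = 0.000396) and by 0.54 ± 0.13 in RNA. Top2a rose by 0.43 ± 0.12 in RNA (adjusted p = 0.00889), a call that ended without knockdown 3 (0.0568). Of 11 cell cycle members, 2 rose and 3 fell in RNA, and of 6 ubiquitin members 2 rose. In RNA the whole cell cycle list had 14 higher and 9 lower of 55, and the ubiquitin list 23 higher and 5 lower of 51. The second ubiquitin member to rise, Ube3c (0.32 ± 0.12, adjusted p = 0.0344), was lost without control 1 or 2 or knockdown 1 or 3 (0.101 to 0.142). Fbxw11, a further ubiquitin ligase subunit, was not called (0.24 ± 0.13 in RNA, adjusted p = 0.139).

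Spink5, Ly6a, Slc7a11 and Sqstm1 fell in both assays. Spink5, the epidermal protease inhibitor LEKTI, had 4 peaks with heights of 46, 22, 91 and 28. Its RNA was 318, 297 and 376 CPM in controls and 105, 120 and 98.6 in knockdowns (−1.61 ± 0.13, edgeR adjusted p = 1.35e-07), and its footprints 771, 763 and 1061 against 309, 253 and 266 (−1.63 ± 0.14, adjusted p = 4.37e-11). Of the 4 barrier members, Ppl, periplakin, was higher in RNA (0.45 ± 0.13, adjusted p = 0.0108; lost without control 1 or knockdown 2, 0.0663 and 0.0595) and in footprints (0.45 ± 0.15, adjusted p = 0.0287; lost without control 1 or 2 or knockdown 2 or 3, 0.0694 to 0.174, and with DESeq2, 0.0688). Over the whole barrier list 15 fell and 1 rose of 22 in RNA, and 10 fell and 1 rose of 17 in footprints. Krtdap, a secreted differentiation product whose peaks (heights 94 and 88) were 1 base apart, was at 905, 1386 and 777 against 859, 659 and 848 CPM of RNA, not called.

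Ly6a, the surface antigen Sca-1, fell in RNA from 767, 835 and 697 to 301, 267 and 309 CPM (−1.39 ± 0.13, edgeR adjusted p = 5.6e-07) and by 0.83 ± 0.13 in footprints. Ly6a belongs to a family of closely related genes, so its counts are uncertain. Slc7a11, the cystine transporter, fell in footprints from 76, 65.5 and 80.4 to 29.7, 34.1 and 31.7 CPM (−1.22 ± 0.19, adjusted p = 1.18e-05). The RNA of Slc7a11, at 6.56, 4.02 and 6.85 against 1.35, 3.85 and 2.7 CPM, fell by 1.09 ± 0.31 (adjusted p = 0.00975), a call lost without control 1 (0.0611). Sqstm1, the autophagy receptor p62 with 4 even peaks, fell in RNA from 216, 155 and 165 to 85.3, 107 and 90.2 CPM (−0.93 ± 0.13) and in footprints from 341, 283 and 315 to 156, 209 and 146 (−0.91 ± 0.14, adjusted p = 1.15e-05). Smarcd2, a subunit of SWI/SNF remodellers, fell by 0.80 ± 0.11 in RNA and 0.90 ± 0.14 in footprints. Gsto1, a glutathione transferase with peaks (heights 24 and 114) 2 bases apart, fell in RNA by 0.83 ± 0.14. Its footprint value of −0.35 ± 0.12 (adjusted p = 0.0459) passed in the fit with all libraries and, of the fits that left out 1 library, only in the one without control 3 (0.0640 to 0.213 in the others). Serinc3 fell by 0.75 ± 0.12 in RNA, and its footprint call (−0.48 ± 0.14, adjusted p = 0.0138) ended without control 1 or knockdown 1 or 3 (0.0667 to 0.119).

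**Figure D5:**
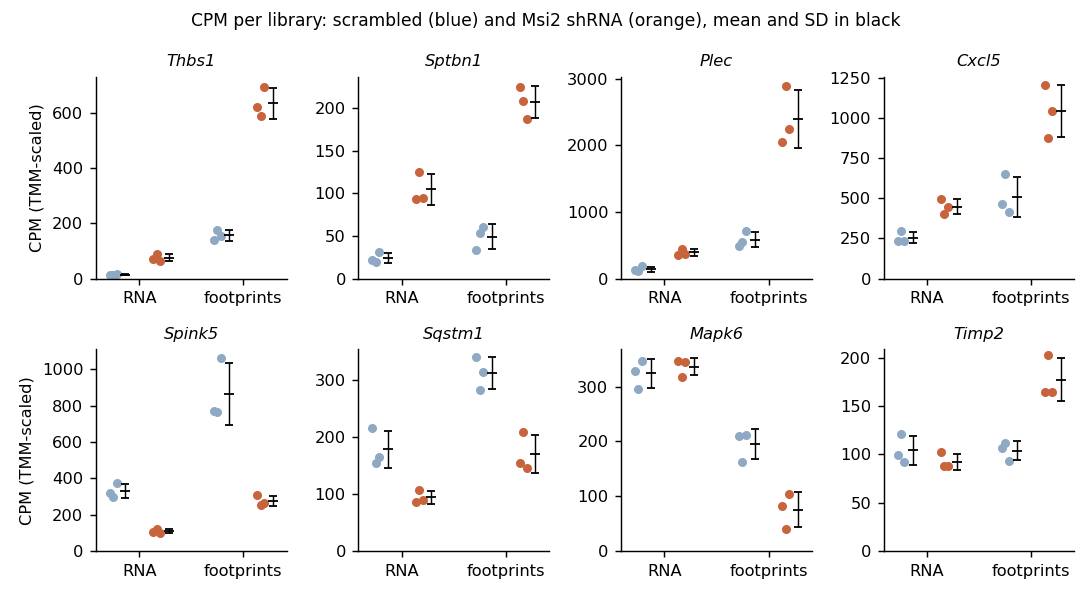
TMM-scaled CPM (y axis) of 8 member genes in each RNA and footprint library (x axis; scrambled in blue, Msi2 shRNA in orange, 3 libraries each), with mean and SD in black. Arms are apart in both assays for Thbs1, Sptbn1, Plec, Cxcl5, Spink5 and Sqstm1, and in footprints alone for Mapk6 and Timp2.

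Members with tall peaks changed to different extents. Cxcl5 rose in RNA from 235, 295 and 237 to 495, 404 and 444 CPM (0.81 ± 0.13, edgeR adjusted p = 0.00013) and in footprints from 464, 649 and 416 to 1205, 879 and 1047 (1.03 ± 0.15, adjusted p = 5.64e-06). Il24 rose by 0.60 ± 0.13 in RNA and by 0.63 ± 0.13 in footprints (adjusted p = 0.000472). Scd2 was at 50.8, 48.9 and 61 against 63.5, 62 and 57.5 CPM of RNA (0.19 ± 0.12, adjusted p = 0.201) and was not called in footprints either. Hspa8, whose peaks are on snoRNA genes, had RNA at 2860, 4739 and 3034 against 5524, 4820 and 6068 CPM (0.63 ± 0.17, adjusted p = 0.0082; lost without control 1 or knockdown 3, 0.0994 and 0.058) and footprints at 138, 198 and 91.7 against 229, 172 and 238 (0.54 ± 0.21, adjusted p = 0.0888). Rps12 rose by 0.46 ± 0.15 in RNA (adjusted p = 0.0186; lost without control 1 or knockdown 2 or 3, 0.0977 to 0.148), and near-identical gene copies make the counts of both genes uncertain. The widely spaced Mbnl3 (RNA 0.24 ± 0.15) was not called, nor was Wbp5 (−0.21 ± 0.14), the most tightly spaced.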

How the data were processed

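Per the submitters' processing notes, RNA and footprint reads were handled with TopHat and HTSeq on mm10, CLIP reads with cutadapt and Novoalign. The notes name DESeq and give no versions, and the peak caller is not given in the sources used here. The deposited tables hold raw counts over coding sequence per gene (20572 genes). The deposited peak lists give a height per region, a signal pooled over the 5 libraries, and read counts per library.

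RNA lines that name no gene (no feature 32.3 to 35.2%, ambiguous 0.175 to 0.228%, multiple alignments 13.4 to 24.5% of a library) stayed out of library sizes. Multiple alignments differed between the arms, at 13.4, 14.9 and 17.4% in controls and 19.8, 24.5 and 21.2% in knockdowns. The part of this difference in the RNA changes was not tested. Counts were fitted in R 4.3.3 with edgeR 4.0.16 (filterByExpr, minimum count 10 and total 15, TMM, robust quasi-likelihood F test, Benjamini-Hochberg, threshold 0.05), RNA and footprints apart, and translational efficiency as an interaction over 12 libraries. The scripts were tested on simulated counts. Alternatives used DESeq2 1.42.0, limma 3.58.1 (voom) and other filters, scalings and peak settings. Peak distances run between centres, gaps are the bases between edges, and predicted genes were counted and not named. Small RNA and gene positions are from RefSeq (GRCm38.p6).

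Named genes followed a rule: the 6 with the largest summed height, extremes of spacing and of evenness, the 6 largest increases and decreases per assay with adjusted p under 0.05, an average log2 CPM of 3 or more and no overlap of the arms (5 per direction in translational efficiency, overlap allowed), and the 3 smallest footprint p-values of each role list, of 18, that held 3 or more members. Some genes that meet the rule are not reported here. Members and lists were chosen with earlier results of these data known.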

Additional observations from a re-analysis of the deposited data

How the results depend on the processing

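Calls of RNA and footprints among the members kept their direction in every fit run. With the replicate number as a block, 135 member genes were called in RNA (all 135 also without it) and 88 in footprints (80 shared), and in translational efficiency 1 was called, 0 higher and 1 lower. No pairing by number showed in the values: deviations of same-numbered libraries correlated at 0.0998, −0.347 and −0.302 in RNA and 0.0497, 0.0289 and −0.00281 in footprints. Those deviations are from the mean of the 3 libraries of an arm, which ties them to one another. They cannot settle whether libraries shared a culture or batch. Between differently numbered RNA libraries the values were 0.398 (control 3, knockdown 2), 0.318 (control 2, knockdown 3) and, in the others, −0.162 to 0.0826. No fit paired those libraries. Leaving out 1 library gave 114 to 204 called members in RNA (73 to 121 higher, 41 to 83 lower), 57 to 95 in footprints (43 to 68 higher, 14 to 27 lower) and 0 to 19 in translational efficiency (0 to 3 higher, 0 to 16 lower), the 19 without RNA control 3. Counts in translational efficiency were also 11 with DESeq2 (8 higher), 8 with voom (6 higher), 9 with no filter (2 higher, 7 lower), 1 without the shallowest footprint library of each arm (0 higher, 1 lower) and 6 with the trend of each library on gene span removed (4 higher). With 10 CPM in 3 libraries or upper-quartile factors 0 were higher. The span-trend and shallow-library settings were chosen after seeing the data, as was the distance between summits.

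The members' median RNA change, 0.03, turned to −0.0337 with the span trend removed. Their median in translational efficiency turned to −0.0223 with 10 CPM in 3 libraries, and to −0.00803, −0.0468, −0.00473 and −0.0319 without RNA control 1, RNA control 3, RNA knockdown 2 and RNA knockdown 3, within a range of −0.0468 to 0.0866 over the fits that left out 1 library. Counting members anew among peaks with a height of 20 or more gave 477 peaks in 183 genes with a median height of 32. Of these genes 89 were called in RNA (55 higher, 34 lower) and 0 were higher in translational efficiency. The set is smaller and also a different one, since genes with 5 or more peaks in the full list can enter it. The shares of 3′ UTR-list reads then became 51.4%, 53.4%, 50.7%, 50.4% and 51.2% from the undiluted library to 1 in 75. Of the reads in all listed peaks, members held 12.7%, 17.1%, 19.4%, 17.0% and 18.1%. Merging peaks 50 bases apart or closer raised the median centre distance to 642 and the gap to 334 bases, and the gap in place of the distance was 146. The cause of the moves in translational efficiency was not tested. Depth is a limit of the footprints, at 512256 counts in the shallowest library, and heights from 10 upward leave single peaks imprecise.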

Other observations

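Outside the microRNA hairpins, 22 further member peaks drew more than 15% of their reads from the undiluted-RNase library, which gave 2.17% of all member-peak reads. Most were low. In Nabp1, which encodes a single-stranded DNA binding protein, 6 of the 11 reads of a peak 48 bases wide came from that library (54.5%). In Erbb3, a receptor of the EGF family, it gave 6 of 16 reads, and in Cdkn1b, the cell cycle inhibitor p27, 7 of 19. Both peaks of Clip4, 31 and 46 bases wide, had 3 of 10 reads from it. Cdkn1a, the inhibitor p21, had 3 of 12, and Cldn4 had peaks with 3 of 16 and 2 of 12. These genes were singled out after their values were seen, and counts of this size leave wide counting error.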
